A study of Mus musculus with 4 samples.

Results

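The G1 cyclins and their kinases are the 8 genes Ccnd1, Ccnd2, Ccnd3, Ccne1, Ccne2, Cdk2, Cdk4 and Cdk6, and they were read by every probe set of the array that was annotated with exactly 1 of these symbols. Each probe set combines several short probes against a transcript. There were 24 such probe sets among 45037 that are not Affymetrix controls, and 21 of them were bright enough to be tested, among 27022 tested in all. The RNA came from primary mouse embryonic fibroblasts (MEFs), connective tissue cells grown directly from embryos, at passage 3. The RBP2-/- group held 2 independent lines of MEFs without RBP2, and the wild type group held 2 independent lines of MEFs, with 1 array per line. RBP2, encoded by Kdm5a, is the retinoblastoma binding protein that demethylates lysine 4 of histone H3. The strain, the embryos' age, the part of Kdm5a that was removed and any agent given to the cells are not given in the sources used here.

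Cells commit to division late in G1, the phase before DNA synthesis. Growth factors raise the D-type cyclins, which bind Cdk4 or Cdk6, and these kinases begin to phosphorylate the retinoblastoma protein RB. The E-type cyclins then activate Cdk2, RB is phosphorylated further, and E2F factors are released to switch on the genes of DNA synthesis, Ccne1 and Ccne2 among them. In fibroblasts the D-type cyclins report growth factor supply, while the E-type cyclins rise and fall with each round of division. RBP2 was found through its binding to RB, and the array comparison asks which transcripts differ when it is missing.

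Because RBP2 acts on histones, the promoters of Cdk2 and Cdk4 are shown, in which letters of known cell cycle elements occurred more than once. The table of RefSeq promoters on build GRCm38.p6 matched 5 of the 8 genes with 6 windows, of which the 250 bases before each start were searched on both strands. The Cdk2 window lies at chr10:128705052-128705301 on the minus strand, and the Cdk4 window at chr10:127063285-127063534 on the plus strand. Capitals mark TTCCCGC, the core of an E2F element, or its reverse complement in Cdk2, and CACGTG, the E-box bound by Myc and related factors, in Cdk4.
Cdk2: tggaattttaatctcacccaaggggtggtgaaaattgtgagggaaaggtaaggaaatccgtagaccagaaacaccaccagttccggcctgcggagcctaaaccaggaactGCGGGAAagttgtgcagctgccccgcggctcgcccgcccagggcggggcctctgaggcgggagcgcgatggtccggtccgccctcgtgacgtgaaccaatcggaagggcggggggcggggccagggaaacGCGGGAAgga
Cdk4: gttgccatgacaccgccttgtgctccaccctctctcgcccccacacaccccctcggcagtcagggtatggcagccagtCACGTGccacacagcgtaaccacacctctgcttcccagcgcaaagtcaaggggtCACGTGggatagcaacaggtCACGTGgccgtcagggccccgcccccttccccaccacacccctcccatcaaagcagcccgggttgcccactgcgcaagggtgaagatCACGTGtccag

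The Cdk2 window held the E2F core 2 times and the Cdk4 window held the E-box 4 times. Of the 6 member windows, 1 held the E2F core at least 1 time and 2 held the E-box. Over all 32851 promoter windows of this length, 3.82% held the E2F core at least 1 time and 6.02% the E-box. The Cdk6 window held 1 E-box, and the windows of Ccne1 and Ccnd3 held neither set of letters. These matches describe letters and were not measured as bound sites.

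The deposited signal was not on a common level, with a median of 21.5 and 43.7 in RBP2-null lines 1 and 2 and 22.7 and 29.4 in wild-type lines 1 and 2. Arrays were therefore quantile normalized, and values below are log2(signal + 9) unless called deposited. A log2 fold change is RBP2-null minus wild type on this scale, which understates changes of dim probe sets. Wild-type line 1 stood apart, correlating with the other 3 arrays across tested probe sets at 0.927 to 0.928, while those 3 correlated with each other at 0.948 to 0.965. The brightest Kdm5a probe set had 6.40 and 6.49 in the RBP2-null lines and 6.72 and 7.65 in the wild-type lines, a log2 fold change of -0.74 that did not pass the limma threshold of an adjusted p of 0.05, and whether it reads the deleted part of the gene is not known. The other 4 tested Kdm5a probe sets had -1.24, with both RBP2-null lines below both wild-type lines and an unadjusted limma p of 0.0146, and -0.25, 0.24 and 0.15. All 10 fibroblast markers fixed for the label, such as Col1a1, Vim and Pdgfrb, were tested and none fell below a normalized signal of 9 on any array. Xist, the RNA of the inactive X, had a normalized signal of 49.9 and 1196 in RBP2-null lines 1 and 2 and 1635 and 65.3 in wild-type lines 1 and 2, so each genotype held 1 line with high Xist. Eif2s3y, a gene of the Y chromosome, had 141 and 3.3 in the RBP2-null lines and 0.7 and 125 in the wild-type lines. In each genotype it was high in the line with low Xist. The p-values rest on 2 lines per genotype, with each probe set's spread between lines moderated by that of all tested probe sets of like brightness.

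None of the 8 genes was shown to differ between RBP2-null and wild-type MEFs. Of the 21 tested probe sets, 0 passed the threshold in either direction and 0 had an unadjusted limma p under 0.05, where over all tested probe sets 0.0037% passed and 2.98% had an unadjusted p under 0.05. Estimates were above 0 for 9 and below 0 for 12, with a median log2 fold change of -0.0075, against a median of 0.0031 over all tested probe sets. The smallest unadjusted p was 0.103, for a dim Ccnd3 probe set, and the limma adjusted p of every one of the 21 was 1.00. The log2 fold change of that Ccnd3 probe set was -1.03. Without wild-type line 1, which stood apart, it was -1.89, and without wild-type line 2 it was -0.25. Over all 4 arrays, each of the 21 intervals at 95% included 0. On the brightest probe set of each gene the intervals reached at most 0.61-fold on the low side, for Ccne1, and 1.95-fold on the high side, for Ccne2. Dimmer probe sets reached further, to 0.20-fold for Ccnd3 1444323_at and 2.20-fold for Ccnd2 1416123_at. The data therefore leave room for changes of these sizes, and they do not show that levels were equal.

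**Figure D1:**
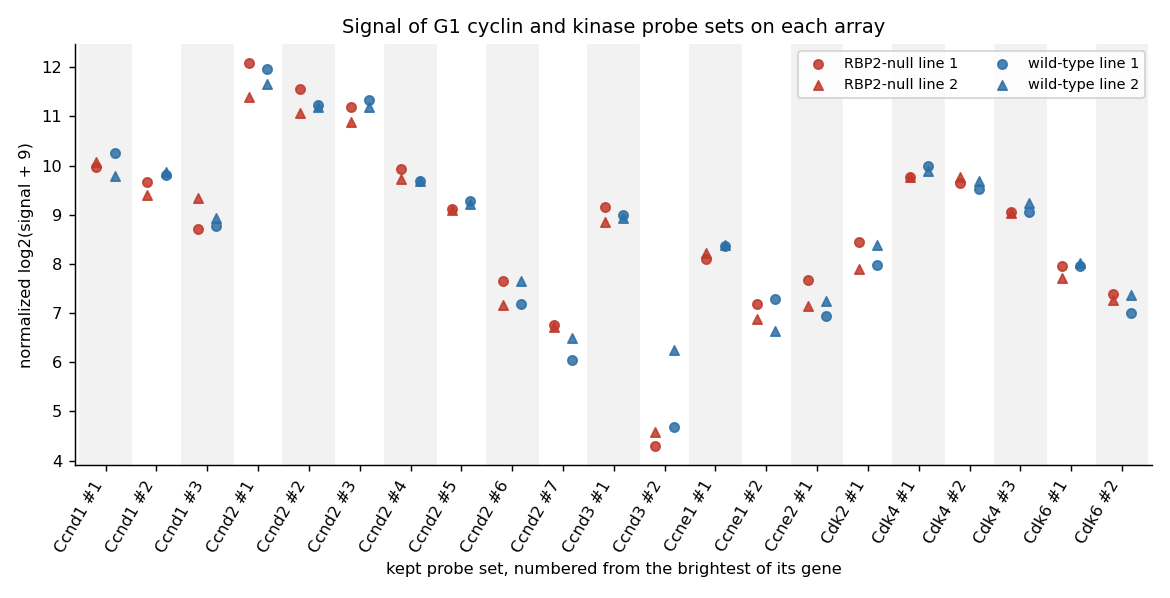
Normalized log2(signal + 9) of the 21 tested probe sets of the G1 cyclins and kinases, 1 point per array, with RBP2-null lines in red on the left of each pair and wild-type lines in blue on the right. In 12 of the 21 probe sets the points of the genotypes overlap, and signals of different probe sets cannot be set against each other.

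Ccnd1 encodes cyclin D1, the D-type cyclin that growth factor signalling through Ras and ERK is best known to induce. Its brightest probe set, 1417420_at, had a deposited signal of 839.5 and 1616 in the RBP2-null lines, against 731.5 and 892.3 in the wild-type lines. After normalization it had 9.96 and 10.07 in the RBP2-null lines and 10.26 and 9.78 in the wild-type lines. The wild-type lines lay on either side of the RBP2-null lines, and the estimate was 0.24 without wild-type line 1 and -0.25 without wild-type line 2. Over all arrays the log2 fold change was -0.0029 (standard error 0.22, 95% interval -0.49 to 0.49).

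The second Ccnd1 probe set, 1448698_at, had 9.66 and 9.40 in the RBP2-null lines and 9.82 and 9.87 in the wild-type lines. Both RBP2-null lines were below both wild-type lines, and the log2 fold change was -0.31 with a 95% interval from -0.76 to 0.13 and an unadjusted limma p of 0.143. The dimmest, 1417419_at, had 8.71 and 9.33 in the RBP2-null lines and 8.77 and 8.94 in the wild-type lines. Here the RBP2-null lines bracketed the wild-type ones, and the estimate was 0.17 with a standard error of 0.25. The 3 Ccnd1 probe sets thus gave 1 estimate above 0 and 2 below.

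Ccnd2 encodes cyclin D2, a D-type cyclin that partners the same kinases and is induced by Myc in fibroblasts. It was read by 7 probe sets, all tested. The brightest, 1416122_at, had a deposited signal of 3971 and 3858 in the RBP2-null lines and 2506 and 3424 in the wild-type lines, which normalization brought to 12.08 and 11.39 in the RBP2-null lines and 11.97 and 11.67 in the wild-type lines. RBP2-null line 1 was the highest array and RBP2-null line 2 the lowest, 0.69 apart. The log2 fold change of -0.082 had a standard error of 0.24, and its 95% interval ran from -0.63 to 0.47.

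The other Ccnd2 probe sets did not share a direction. Probe set 1455956_x_at had 9.92 and 9.73 in the RBP2-null lines, both above 9.68 and 9.70 in the wild-type lines, with a log2 fold change of 0.14. In contrast, 1434745_at had 11.19 and 10.88 in the RBP2-null lines, both below 11.33 and 11.20 in the wild-type lines, with -0.23. A similar order was seen for 1448229_s_at, with 9.12 and 9.09 in the RBP2-null lines, 9.28 and 9.22 in the wild-type lines and a log2 fold change of -0.15. The dimmest, 1416123_at, had 6.76 and 6.72 in the RBP2-null lines and 6.05 and 6.49 in the wild-type lines, so the genotypes did not overlap, and its estimate of 0.47 had a 95% interval from -0.20 to 1.14. The remaining 1430127_a_at and 1416124_at overlapped between genotypes, with estimates of 0.099 and -0.0096. Of the 7, 2 were higher in both RBP2-null lines and 2 were lower, where 14.6% and 14.9% of all tested probe sets were, and no estimate of the 7 passed the threshold. RBP2-null line 1 was the highest array on 4 of them.

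**Figure D2:**
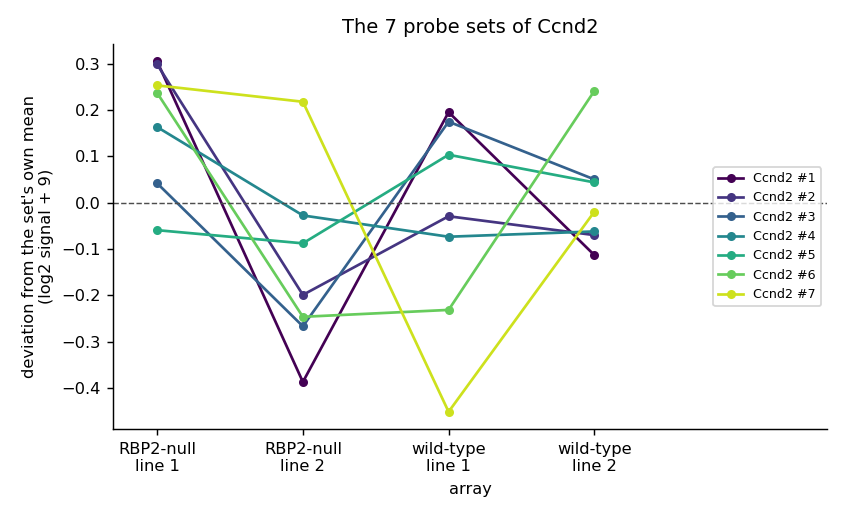
Deviation of each of the 7 Ccnd2 probe sets from its own mean over the 4 arrays, on the log2(signal + 9) scale, numbered from the brightest. Lines join the values of 1 probe set for reading only, and the probe sets put the 4 arrays in different orders.

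Ccnd3 encodes cyclin D3, the D-type cyclin known for its part in lymphocyte and muscle differentiation. Its brightest probe set, 1415907_at, had a deposited signal of 462.5 and 705.4 in the RBP2-null lines and 299.1 and 495.8 in the wild-type lines. Normalized values were 9.15 and 8.85 in the RBP2-null lines and 8.99 and 8.94 in the wild-type lines, and the RBP2-null lines bracketed the others. Its log2 fold change was 0.037 (standard error 0.21, 95% interval -0.44 to 0.52).

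A dim Ccnd3 probe set, 1444323_at, had the lowest unadjusted p of the family. It had a deposited signal of 7.6 and 21.7 in the RBP2-null lines and 13.3 and 68.4 in the wild-type lines, with normalized values of 4.29 and 4.58 in the RBP2-null lines and 4.69 and 6.25 in the wild-type lines. Wild-type line 2 alone was far above the others. The log2 fold change of -1.03 had a 95% interval from -2.33 to 0.26, and it was -0.25 without wild-type line 2 and -1.89 without wild-type line 1. The third, 1438805_at, was too dim to be tested, with a deposited signal of 6.3 and 4.6 in the RBP2-null lines and 8.3 and 7.7 in the wild-type lines.

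Among the E-type cyclins, Ccne1 encodes cyclin E1, the partner of Cdk2 at the start of DNA synthesis. Its brightest probe set, 1441910_x_at, had a deposited signal of 210.7 and 452.8 in the RBP2-null lines and 194.4 and 336.5 in the wild-type lines. After normalization the RBP2-null lines had 8.10 and 8.22, both below 8.36 and 8.39 in the wild-type lines. The log2 fold change of -0.21 had a standard error of 0.22, and its 95% interval ran from -0.70 to 0.28, so the estimate was no larger than its error. Probe sets named with _x_at can bind several transcripts. The other Ccne1 probe set, 1416492_at, had 7.18 and 6.89 in the RBP2-null lines and 7.29 and 6.65 in the wild-type lines, which overlapped, with an estimate of 0.063.

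Ccne2 encodes cyclin E2, which overlaps with cyclin E1 in function, and 1 probe set read it. The deposited signal of 1422535_at was 152 and 211 in the RBP2-null lines and 72.1 and 147.2 in the wild-type lines. Normalized values were 7.67 and 7.15 in the RBP2-null lines and 6.95 and 7.24 in the wild-type lines. RBP2-null line 1 was the highest array, while RBP2-null line 2 lay between the wild-type lines. The log2 fold change of 0.32 was the largest positive one among the brightest probe sets of the 8 genes, with a standard error of 0.28, a 95% interval from -0.33 to 0.96 and an unadjusted limma p of 0.293. Without RBP2-null line 1 it was 0.058, and without RBP2-null line 2 it was 0.57.

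The kinases are proteins whose activity is set largely by cyclin binding, inhibitors and phosphorylation, none of which an RNA array reads. Cdk2, the partner of the E-type cyclins, had a deposited signal of 274.1 and 360.2 in the RBP2-null lines and 147.7 and 337.2 in the wild-type lines on 1416873_a_at. Normalized values were 8.45 and 7.89 in the RBP2-null lines and 7.97 and 8.39 in the wild-type lines. Each genotype had 1 high and 1 low line, and the log2 fold change was -0.0075 (standard error 0.28, 95% interval -0.64 to 0.62). The high line of each genotype was the one with low Xist, and whether sex had a part was not tested. The other Cdk2 probe set, 1447617_at, was too dim to be tested, with a deposited signal of 0.7 and 0.9 in the RBP2-null lines and 8.5 and 6.1 in the wild-type lines.

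Cdk4, the D-cyclin kinase best known in proliferating fibroblasts, was read by 3 probe sets, all tested. The brightest, 1422441_x_at, had a deposited signal of 724.7 and 1326 in the RBP2-null lines and 606.8 and 971.6 in the wild-type lines. Normalized values were 9.77 in both RBP2-null lines, below 9.995 and 9.90 in the wild-type lines. The log2 fold change was -0.18 (standard error 0.18, 95% interval -0.60 to 0.24).

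On 1422440_at the order was the same, with 9.06 and 9.04 in the RBP2-null lines, 9.07 and 9.24 in the wild-type lines and an estimate of -0.10, although RBP2-null line 1 and wild-type line 1 were less than 0.01 apart. On 1422439_a_at the genotypes overlapped, with 9.65 and 9.77 in the RBP2-null lines, 9.51 and 9.70 in the wild-type lines and an estimate of 0.10. The 3 Cdk4 probe sets therefore differed in direction, and each estimate was smaller than its standard error.

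Cdk6, the second D-cyclin kinase, had a deposited signal of 190.1 and 316.9 in the RBP2-null lines and 146.5 and 256.6 in the wild-type lines on its brightest probe set, 1455287_at. Normalized values were 7.97 and 7.71 in the RBP2-null lines and 7.96 and 8.02 in the wild-type lines, with RBP2-null line 2 the lowest and the other 3 arrays close together. Its log2 fold change was -0.15 (standard error 0.23, 95% interval -0.68 to 0.38). On 1435338_at the values were 7.40 and 7.27 in the RBP2-null lines and 7.01 and 7.38 in the wild-type lines, with an estimate of 0.14. The third, 1460291_at, was not tested, with a deposited signal of 15.7 and 4 in the RBP2-null lines and 9.6 and 15 in the wild-type lines.

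**Figure D3:**
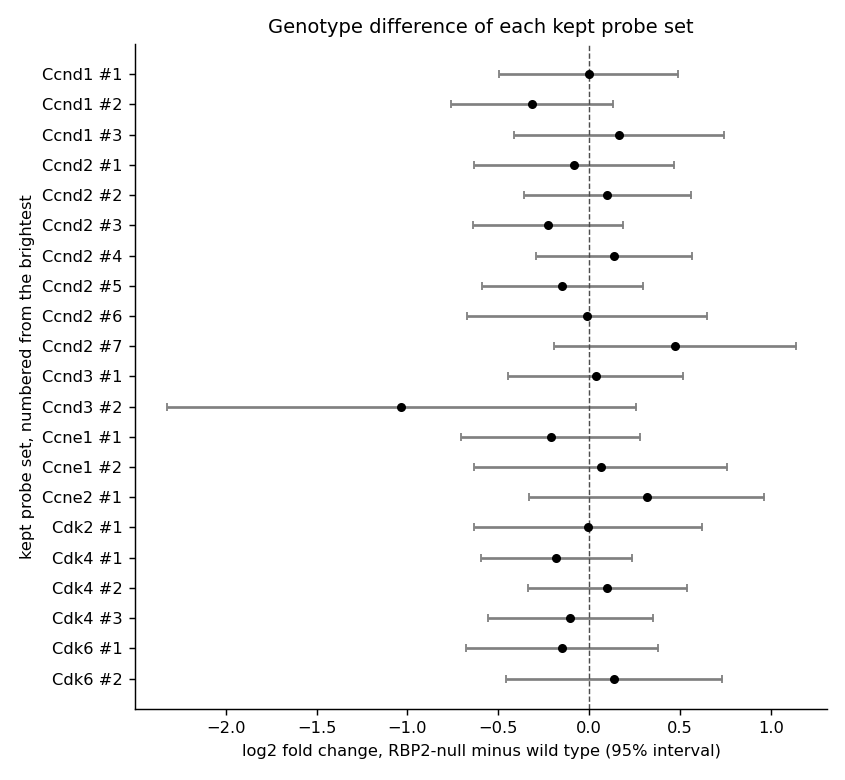
Log2 fold change of RBP2-null minus wild type for the 21 tested probe sets, with points for the limma estimate and bars for its 95% interval, numbered from the brightest of each gene. Every interval crosses 0, and the widest belongs to the dim Ccnd3 probe set at -1.03.

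Probe sets of the same gene disagreed throughout. Of the 6 genes with at least 2 tested probe sets, all 6 had estimates on both sides of 0. The genotypes did not overlap for 9 of the 21 probe sets, of which 2 were higher and 7 lower in the RBP2-null lines, or 42.9%, where 29.5% of all tested probe sets did not overlap. Probe sets of 1 gene are not independent, and on the brightest probe set of each gene the count was 2 of 8, against 29.2% over 13097 genes. The balance depended on scaling. With arrays centred on the median of the tested probe sets, a setting chosen after the data were seen, 5 of the 21, or 23.8%, did not overlap, with 4 higher and 1 lower, against 29.3% of all tested probe sets.

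Lines of 1 genotype differed by more, in the median, than the genotype means did, although a difference of 2-line means varies less than one between single lines. The lines of each genotype also differed in Xist and Eif2s3y, and whether sex had a part in their differences was not tested. The median absolute difference over the 21 probe sets was 0.14 between genotype means, 0.25 between the RBP2-null lines and 0.17 between the wild-type lines. The same medians over all tested probe sets were 0.21, 0.30 and 0.34. The genotype difference exceeded both line differences for 5 of 21 probe sets, or 23.8%, and for 17.5% of all tested probe sets. RBP2-null line 2 was the lowest of the 4 arrays for 10 of the 21 and the highest for 2, and RBP2-null line 1 was the lowest for 4 and the highest for 8. Wild-type line 1 was the lowest for 5 and the highest for 5, and wild-type line 2 for 2 and 6.

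**Figure D4:**
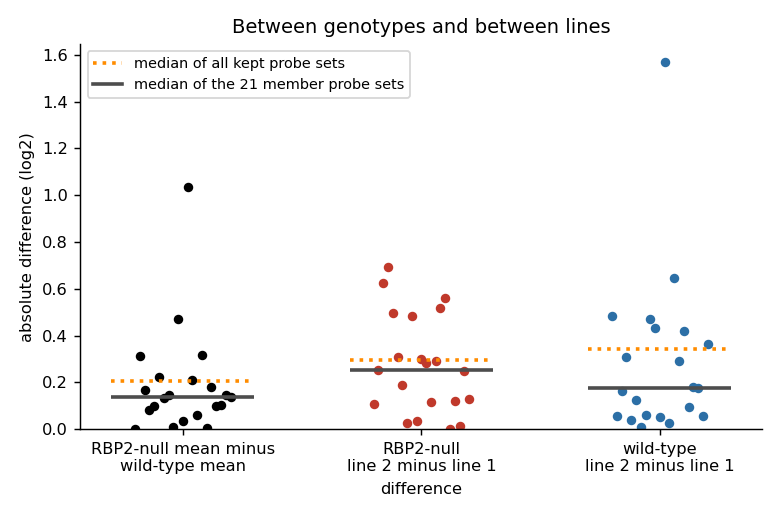
Absolute log2 differences of the 21 tested probe sets between genotype means, between the RBP2-null lines and between the wild-type lines. Grey bars are medians over the 21 (0.14, 0.25 and 0.17) and dotted orange bars are medians over all tested probe sets (0.21, 0.30 and 0.34).

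Markers of dividing cells were read beside the G1 genes, since a culture with fewer cycling cells and one with less of a transcript per cell cannot be told apart in bulk RNA. The summed normalized signal of Mki67, Top2a, Cdk1, Bub1 and Birc5 was 2203 and 2330 in the RBP2-null lines and 2522 and 2632 in the wild-type lines. The sums did not overlap, although each of the 5 genes on its own overlapped between genotypes and 0 passed the threshold. Cdk1 weighed most in the sums, with 1237 and 900 in the RBP2-null lines and 1472 and 1045 in the wild-type lines. Without Cdk1 the sums overlapped between genotypes. Of the 5 estimates, 2 were above 0 and 3 below. Their part in the values of the G1 genes was not tested. The 6 leukocyte markers summed to 226 and 240 in the RBP2-null lines and 377 and 266 in the wild-type lines. Only 4 of the 6 were tested. Signals below 9 numbered 2 in RBP2-null line 1, 1 in RBP2-null line 2 and 0 in each wild-type line. The estimates of the 4 tested markers were all below 0, with a median log2 fold change of -0.41, and 0 passed the threshold. Csf1r had 110 and 113 in the RBP2-null lines, below 142 and 133 in the wild-type lines. Its 3 tested probe sets ran from -0.28 to 0.43. Fcer1g had 24.9 and 23.9 in the RBP2-null lines and 76.1 and 20.3 in the wild-type lines. Epithelial markers summed to 458 and 606 in the RBP2-null lines and 741 and 560 in the wild-type lines. In the same order, muscle markers had 1215 and 317 against 775 and 396, and neural markers 591 and 525 against 707 and 567. On every array most of the epithelial sum came from Epcam, most of the muscle sum from Acta1 and most of the neural sum from Nes. Epcam was read on a probe set named with _x_at. The part of these markers was not tested either.

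Other genes of the G1 pathway also gave no call. Over 6 lists with 83 tested genes, read on the brightest probe set of each, 0 rose and 0 fell at the threshold, and 1 had an unadjusted limma p under 0.05, where 0.00764% and 2.6% of all 13097 genes did so. The CDK inhibitors and pocket proteins, which restrain the G1 kinases or are their substrates, had 4 of 10 estimates above 0 and a median of -0.015, and 3 of 10 did not overlap between genotypes, where 29.2% of all genes did not. The lowest p there belonged to the Cdk4 and Cdk6 inhibitor Cdkn2c, with a log2 fold change of -0.34, the pocket protein Rbl2 with -0.28, and the inhibitors Cdkn2d and Cdkn2b with -0.16 and 0.13. The E2F and DP factors, which RB restrains, had 6 of 10 above 0 and a median of 0.090. Among them E2f5 had 4.82 and 9.01 in the RBP2-null lines and 9.94 and 6.80 in the wild-type lines, so its estimate of -1.45 had a standard error of 1.29. In each genotype E2f5 was higher in the line with high Xist, and whether sex had a part was not tested. E2f2, Tfdp2 and Tfdp1 had estimates of 0.43, 0.20 and 0.15. The E2f2 probe set was dim, and its estimate had a standard error of 0.44. Over the 3 tested probe sets of each gene, estimates ran from -1.45 to 0.53 for E2f5 and from -0.40 to 0.20 for Tfdp2.

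Regulators that activate or inhibit the cyclin-dependent kinases had 5 of 10 estimates above 0 and a median of 0.0077. The unadjusted p under 0.05 belonged to Pkmyt1, a kinase that inhibits Cdk1, with 5.67 and 6.40 in the RBP2-null lines and 7.47 and 6.82 in the wild-type lines. Its log2 fold change was -1.11 with a standard error of 0.36, an unadjusted limma p of 0.0140 and an adjusted p of 1.00, and another Pkmyt1 probe set had 0.055. Cdk7 and Ccnh, which form the kinase that activates other CDKs, had 0.19 and 0.19, and Cks1b had 0.092. Over all tested probe sets of each gene, estimates ran from -0.79 to 0.19 for Cdk7, from 0.091 to 0.25 for Ccnh and from -0.26 to 0.092 for Cks1b.

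Genes of cyclin turnover had 5 of 11 estimates above 0 and a median of -0.0031. Fbxo31, an F-box protein that targets cyclin D1, had 6.43 and 6.16 in the RBP2-null lines and 4.87 and 6.18 in the wild-type lines, so only wild-type line 1 was low, and its estimate of 0.77 had a standard error of 0.45. Fbxw7, which targets cyclin E, had 0.53, with 7.41 and 6.66 in the RBP2-null lines above 6.40 and 6.60 in the wild-type lines. Skp2 and Gsk3b had 0.35 and -0.19. The E2F target genes of DNA synthesis had 7 of 16 above 0 and a median of -0.0025. Cyclin A2 (Ccna2) had 9.02 and 8.77 in the RBP2-null lines, below 9.19 and 9.28 in the wild-type lines, with -0.34, and Tyms, Cdc6 and Pcna had -0.92, 0.39 and -0.14. The Tyms probe set was dim, with a deposited signal of 20.8 and 5 in the RBP2-null lines and 24.8 and 31.7 in the wild-type lines. After normalization only RBP2-null line 2 was far below the others, and the standard error was 0.57. The other cyclins and CDKs had 13 of 26 above 0 and a median of 0.0060, and the lowest p belonged to Ccng1, a p53 target, with 0.26, Ccny with 0.29, Ccnj with 0.57 and Cdk16 with -0.20. Over all tested probe sets of each gene, Ccng1 ran from -0.080 to 0.26 and Ccny from -0.0031 to 0.65. The Ccnj probe set was dim, and its estimate had a standard error of 0.42. Over all genes the median on the brightest probe set was -0.010, and for the 8 G1 genes it was -0.045 with 2 above 0 and 6 below.

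**Figure D5:**
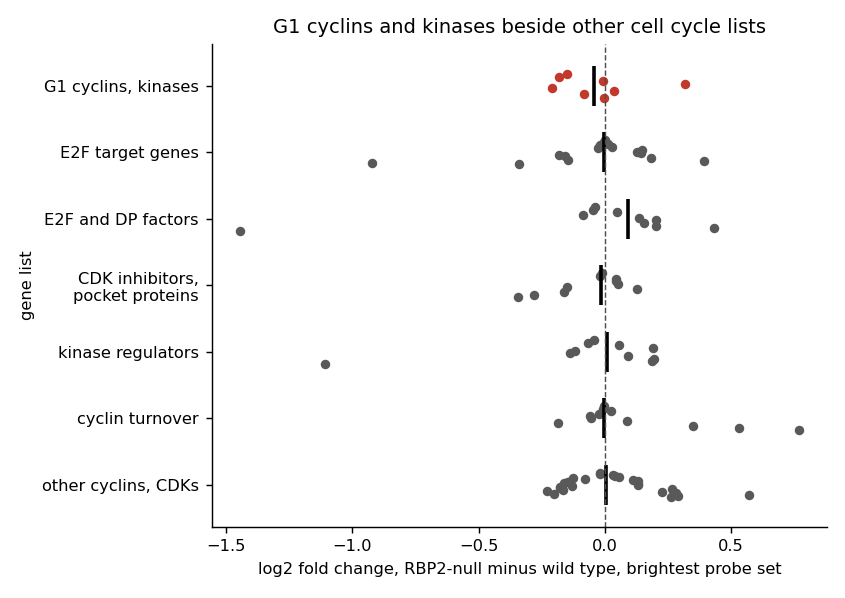
Log2 fold change of RBP2-null minus wild type on the brightest probe set, 1 point per gene, for the 8 G1 cyclins and kinases in red and 6 other cell cycle lists in grey, with black bars for list medians. List medians lie between -0.045 and 0.090, and no gene shown passed the threshold.

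The array profiles most like those of the G1 genes were sought among the 83 genes of these lists, as the smallest root mean square difference of deviations from the gene's own mean over 4 arrays. Ccne1 was closest to Cdk16, with a root mean square difference of 0.010, against a median of 0.20 over the 83. For Cdk4 it was Orc1 at 0.023, for Ccnd3 Rrm2 at 0.024, for Cdk6 Gsk3b at 0.035 and for Ccnd1 E2f3 at 0.043. For Ccnd2 it was Cdkn1a at 0.087, for Ccne2 Tfdp1 at 0.090 and for Cdk2 Ccnt1 at 0.10. With 4 arrays, these only describe how close the values lay. The order of arrays was not always shared, as Cdk6 was highest in wild-type line 2 and Gsk3b in wild-type line 1. The nearest of 83 genes lies below their median by construction.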

How the data were processed

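The authors deposited a linear intensity for each of 45101 probe sets on 4 Affymetrix 1-colour arrays hybridised with biotin-labelled total RNA, per the labels. The summarisation, background correction and scaling behind it are not given in the sources used here. Trimmed means differed between arrays up to 2.46 times, so the values were quantile normalized after removing 64 controls, a pseudocount of 9 (the 25th percentile) was added and log2 was taken. The upper 60% by mean were tested in limma 3.58.1 (R 4.3.3) with lmFit and eBayes using a mean-dependent prior variance, two-sided, with Benjamini-Hochberg adjustment over 27022 probe sets. The number of arrays limits precision, and an exact permutation test of 2 lines against 2 cannot go below p = 0.333. The procedure was tested on simulated data. Symbols came from a platform annotation table, in which 34945 probe sets had 1 symbol, 932 several and 9160 none, and 34741 matched RefSeq by Entrez number. Members and lists were chosen with earlier results of these data known. Named genes are all member probe sets, Kdm5a, in each list the 4 genes lowest in unadjusted p, and the nearest profile of each member. The brightest probe set has the highest mean over all arrays.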

Additional observations from a re-analysis of the deposited data

How the results depend on the processing

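In all 12 alternatives, 0 probe sets of the G1 genes passed the threshold, and the smallest limma adjusted p of a member was 0.435. With no filter all 24 member probe sets were tested, and 1 had an unadjusted limma p under 0.05, as did 1653 of all 45037 probe sets. Over all tested probe sets the count was 1, and it was 2 with median-centred arrays, 0 with no filter, with no scaling or with a single prior variance, 49 with the replicate number as a block, and between 0 and 41 with each array left out in turn. The labels do not say that the numbers pair lines, and line 2 minus line 1 correlated at 0.11 between the genotypes across probe sets, so they were not taken as pairs. With the block 0 member probe sets passed, with a smallest adjusted p of 0.763. Of 248 member estimates under alternatives, 224 kept their sign and 24 did not. Having no filter, a single prior variance, the block or no probe sets named _s_at or _x_at cannot change an estimate. Those values kept their sign by construction, so the 224 do not measure stability. Of the 24, 14 came with an array left out, the rest from median-centring and leaving out scaling, and 0 from either pseudocount. Median-centring and leaving out scaling moved the median of all tested probe sets by 0.18 and 0.38. Relative to those shifts, both settings give the same estimate by construction, since centring only subtracts a constant from each array. The sign turned for Ccnd1 1417420_at at 0.14, Ccnd2 1416122_at and 1416124_at at 0.035 and 0.042, Cdk2 1416873_a_at at 0.091 and Cdk4 1422440_at at 0.033. These 5 are counted under both settings among the 24. Before subtracting the shift, 11 of 21 turned in each setting. The limma tests counted above for both settings were made on these unshifted estimates. With each array left out in turn, Ccnd1 1417420_at ranged from -0.25 to 0.24, Ccnd1 1417419_at from -0.15 to 0.48, Ccnd2 1416122_at from -0.42 to 0.27, Ccnd2 1430127_a_at from -0.15 to 0.37 and Ccnd2 1416124_at from -0.25 to 0.23. Likewise Ccnd3 1415907_at ranged from -0.11 to 0.19, Ccne1 1416492_at from -0.26 to 0.40, Cdk2 1416873_a_at from -0.28 to 0.27 and Cdk6 1435338_at from -0.045 to 0.32. The count of member probe sets without overlap was 5 when arrays were centred on the median of the tested probe sets, where 29.3% of all tested probe sets did not overlap, and between 13 and 17 with an array left out, where single lines separate more easily and 60.2% to 72.7% of all tested probe sets did not overlap. The causes of these changes were not tested.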
